A study of Homo sapiens with 6 samples.

Results

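Divergent transcripts are RNAs that start near the promoter of a protein-coding gene and run away from it on the other strand. In the deposited table they carry the symbol of the neighbouring gene, the host, followed by -DT. Genes so named were kept when they had 30 or more raw counts in at least 3 of the 6 libraries. This took 187 of 598 such genes, among 78932 genes listed. The transcripts were thus selected on the same counts that are compared here, and one near the limit is kept or lost by a few reads. In FBXO38-DT and TMEM18-DT, just inside, the third highest count was 30, and in NCMAP-DT, SF1-DT and ODC1-DT, just outside, it was 29, 29 and 28.

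The series holds RNA-seq of T24, a human bladder carcinoma cell line, after transfection with a control siRNA (siNC, 3 libraries) or with siRNA against TRIM28 (siTRIM28, 3 libraries). All 6 libraries were made from poly(A) RNA with a stranded kit, share 1 labelled batch and are called biological replicates. Neither the time of harvest nor which of the study's siRNAs was used is given in the labels. TRIM28 encodes a corepressor that is recruited to DNA by zinc-finger proteins. Its level was 102, 101 and 108 CPM (counts relative to library size, scaled with edgeR's TMM) in siNC and 9.28, 8.11 and 9.21 CPM in siTRIM28, a log2 fold change of -3.54 ± 0.07 (SE).

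Most promoters of mammalian genes fire in both directions. The transcript that runs upstream is usually short-lived, because early poly(A) signals end it and the nuclear exosome degrades it, whereas the host is protected by splicing. Those that are spliced and polyadenylated can last long enough to be annotated as long noncoding RNAs, and a poly(A) library sees mainly these.

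All 187 transcripts lie on the strand opposite to their host. The starts are within 1000 bases of each other for 152 of them, with a gap between the spans in 88 (median 126.5 bases) and an overlap in 64. The other 35 are annotated with starts farther away. Between the annotated spans of transcript and host there is an overlap in 96 cases and none in 91.

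This overlap matters for the counts. MALAT1, an abundant nuclear noncoding RNA, and TALAM1, which is annotated over the same bases on the other strand, were given 8218 and 8218 counts in siNC replicate 1 and 15204 and 15202 in siTRIM28 replicate 1. MGAT2 and a gene without a symbol on the other strand had 491 and 487 counts in siNC replicate 1. With at least 300 counts each, the table holds 3 pairs on opposite strands in which exons fill at least 80% of each gene's span and each span covers at least 80% of the other, and the smaller total was 93.3% to 100% of the larger. Reads in such regions were thus counted for both genes, whatever the strand. Where a divergent transcript overlaps its host, its counts can hold reads of the host. How many they are was not tested. Values are therefore also given for the 91 transcripts with spans apart from the host, and for the 19 that overlap no listed gene.

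Promoter sequences were found for 143 of the 187 transcripts in RefSeq (GRCh38.p14, 250 bases before the start to 50 after it). They were rich in CpG, with a median of 29 CpG in 300 bases against 14 over all 27305 promoters of the same length, and a median GC content of 67.0% against 58.3%. The 328 promoters of other -DT genes had a median of 31 CpG, so this richness was not particular to the transcripts kept here. The GC box GGGCGG, on either strand, stood in 72.0% of them against 44.6% of all promoters. CCGGAAG, the core bound by ETS factors, stood in 23.1% against 10.7%, and TGACGTCA, the cAMP response element, in 6.29% against 1.98%. TATAAA stood in 5.59% against 12.0%, namely in 6 of the 43 promoters of transcripts that rose (14.0%), in 2 of the 89 of transcripts not called (2.25%) and in 0 of 11 of those that fell. CCAAT stood in 37.8% against 35.7%, the AP-1 site TGACTCA in 4.20% against 4.92% and the NRF1 site in 2.80% against 1.36%. These are matches of letters, not sites shown to be bound, and these counts by direction were not tested. The median number of CpG was 28 for transcripts that rose, 30 for those not called and 34 for those that fell.

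The promoters of 5 transcripts are printed because the results below turn on them. ERRFI1-DT had the largest rise, CAMSAP1-DT and OSER1-DT moved against their hosts, BAIAP2-DT had the largest fall among transcripts with spans apart from the host, and SAT1-DT had the highest level. Capitals mark matches to the GC box, to CCAAT, to TATAAA, to the ETS core, to the AP-1 site, to the cAMP response element or to the NRF1 site, on either strand and with overlapping matches merged. Each sequence reads 5′ to 3′ on the strand of the divergent transcript.
ERRFI1-DT (chr1:8026243-8026542, + strand): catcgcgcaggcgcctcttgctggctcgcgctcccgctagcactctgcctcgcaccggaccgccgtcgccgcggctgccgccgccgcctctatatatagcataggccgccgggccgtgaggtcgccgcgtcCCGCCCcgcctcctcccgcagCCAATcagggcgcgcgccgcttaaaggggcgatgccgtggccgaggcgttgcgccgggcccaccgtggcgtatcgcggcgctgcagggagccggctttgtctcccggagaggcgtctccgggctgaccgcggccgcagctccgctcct
CAMSAP1-DT (chr9:135907583-135907882, + strand): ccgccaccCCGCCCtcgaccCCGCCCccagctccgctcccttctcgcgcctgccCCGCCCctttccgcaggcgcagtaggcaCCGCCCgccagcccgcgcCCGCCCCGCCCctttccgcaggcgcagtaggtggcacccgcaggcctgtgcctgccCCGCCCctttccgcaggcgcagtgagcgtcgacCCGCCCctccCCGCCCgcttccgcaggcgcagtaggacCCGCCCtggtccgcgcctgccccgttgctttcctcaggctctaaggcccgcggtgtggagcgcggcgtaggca
OSER1-DT (chr20:44210710-44211009, + strand): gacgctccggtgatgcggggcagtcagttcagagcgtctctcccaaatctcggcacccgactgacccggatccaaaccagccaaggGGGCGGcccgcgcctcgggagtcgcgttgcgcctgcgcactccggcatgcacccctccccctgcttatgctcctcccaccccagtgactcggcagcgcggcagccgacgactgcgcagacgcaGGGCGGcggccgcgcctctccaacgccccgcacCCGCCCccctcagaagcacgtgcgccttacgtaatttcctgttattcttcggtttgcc
BAIAP2-DT (chr17:81034670-81034969, - strand): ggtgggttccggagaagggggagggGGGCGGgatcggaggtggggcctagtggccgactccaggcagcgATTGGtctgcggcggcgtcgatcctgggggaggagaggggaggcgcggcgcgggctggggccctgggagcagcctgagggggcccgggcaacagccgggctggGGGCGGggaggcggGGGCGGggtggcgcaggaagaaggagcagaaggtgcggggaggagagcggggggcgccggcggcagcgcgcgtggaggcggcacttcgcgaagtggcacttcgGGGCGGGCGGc
SAT1-DT (chrX:23782937-23783236, - strand): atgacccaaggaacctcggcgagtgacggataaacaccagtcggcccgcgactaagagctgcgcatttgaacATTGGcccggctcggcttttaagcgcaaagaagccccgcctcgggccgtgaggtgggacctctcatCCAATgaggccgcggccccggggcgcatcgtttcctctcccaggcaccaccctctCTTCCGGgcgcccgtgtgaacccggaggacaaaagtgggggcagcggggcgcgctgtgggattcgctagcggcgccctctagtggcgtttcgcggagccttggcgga
The host's own start falls inside the printed window for ERRFI1 (position 67 from the left), OSER1 (position 62) and SAT1 (position 64). It lies outside the window for CAMSAP1 and BAIAP2. The window of CAMSAP1-DT holds 10 copies of the GC box and that of BAIAP2-DT holds 5, whereas that of SAT1-DT holds none.

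Total counts were 12989362 to 13942383 in siNC and 11712623 to 14018052 in siTRIM28. Together the 187 transcripts took 0.236% to 0.244% of the counts in siNC and 0.257% to 0.280% in siTRIM28, so the groups did not overlap. siTRIM28 replicate 1 stood apart, with 0.280% against 0.257% and 0.258% in the other two. The siNC replicates 1 and 2, and the siTRIM28 replicates 2 and 3, differed less from each other (chi-square per degree of freedom 1.08 and 1.24) than any other pair of replicates did (4.59 to 6.99), and as an alternative each of these close pairs was summed into 1 sample. Of the markers for the labelled cell type, KRT8 and KRT18 were at 104 and 86.1 CPM in siNC, while UPK1B and KRT20 were at 0 in every library and CDH1, KRT5 and UPK3A were at most 0.144 CPM in any library. The mesenchymal markers VIM and ZEB1 were at 1102 and 416 CPM, and none of 4 immune and 3 endothelial markers had enough counts to be tested. Some markers moved with the knockdown. Of 7 epithelial markers tested 4 were called higher in siTRIM28 and 0 lower (KRT7 0.56, KRT8 0.14, UPK1A 1.94 and TP63 1.01 on the log2 scale), of 4 mesenchymal ones 2 (VIM 0.33 and SPARC 0.29), and of 2 fibroblast ones 1 (COL1A1, 1.78, from a mean of 0.932 to one of 3.28 CPM). Among the epithelial ones, UPK1A and TP63 rest on low levels (means of 0.874 and 0.469 CPM in siNC and 3.41 and 0.966 CPM in siTRIM28). The call of TP63 was marginal (adjusted p = 0.04998 in edgeR). What part the markers had in the results below was not tested. The polymerase III transcript RN7SK had 3923 counts in siNC replicate 3 against 150 and 178 in the other siNC libraries and 141 to 536 in siTRIM28.

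Per length, the transcripts were low. Their median level was 1.32 RPKM (CPM per kilobase of gene length, mean of 6 libraries), with a range of 0.121 to 115 RPKM, against a median of 7.28 RPKM for their hosts. In 157 of the 187 pairs the divergent transcript had the lower RPKM, and in 30 the higher. Among the 91 with spans apart from the host, 71 were below it.

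**Figure D1:**
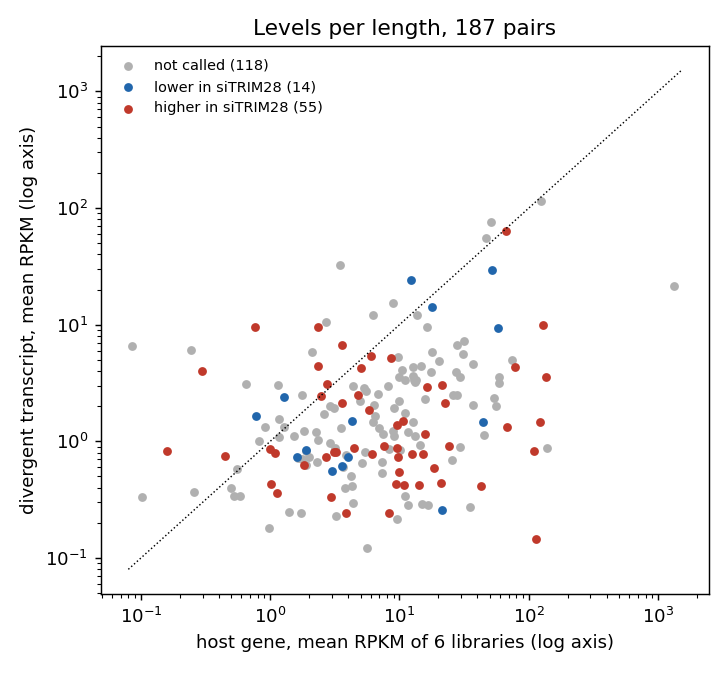
Mean RPKM over 6 libraries of each divergent transcript (vertical, log axis) against that of its host (horizontal, log axis), coloured by whether the transcript passed the test between siTRIM28 and siNC. Of 187 points, 157 lie below the dotted line of equal level.

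SAT1-DT, beside the gene of the polyamine-degrading acetyltransferase SAT1, was the most abundant at 115 RPKM. It measured 241, 239 and 235 CPM in siNC and 248, 199 and 195 CPM in siTRIM28. For every 100 counts of SAT1 there were 72.6, 73.9 and 72.5 counts of SAT1-DT in siNC and 76.5, 72.2 and 72.1 in siTRIM28. The groups overlapped in both measures, and SAT1-DT was not called (log2 fold change -0.15 ± 0.08, adjusted p = 0.131), although it was called lower without siTRIM28 replicate 1 (-0.27) and with no filter on low counts (-0.16). The host SAT1 was called lower (log2 fold change -0.17 ± 0.06, adjusted p = 0.0462), a call that was lost without any one of the other 5 libraries (-0.18 to -0.13), in DESeq2 (-0.17) and under 3 other settings (-0.15 to -0.13).

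BTF3-DT, which overlaps no listed gene and lies beside BTF3, a subunit of a chaperone for nascent proteins, followed at 76.0 RPKM. Its levels were 147, 155 and 134 CPM in siNC and 185, 133 and 130.1 CPM in siTRIM28, and with 51.1, 53.5 and 49.1 counts per 100 of BTF3 in siNC and 59.4, 49.4 and 48.1 in siTRIM28 the groups overlapped. ACTN1-DT, at 55.9 RPKM beside the actin crosslinker ACTN1, shares 483 bases with that gene, which had a mean of 8755 counts, so its level may hold reads of ACTN1. It measured 72.9, 72.9 and 60.3 CPM in siNC and 92.3, 61.5 and 59.2 CPM in siTRIM28. In both, siTRIM28 replicate 1 was the highest of all libraries, and without it both were called lower (-0.15 for BTF3-DT and -0.19 for ACTN1-DT), against log2 fold changes of 0.04 and 0.05 with all libraries.

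TARS1-DT, at 63.5 RPKM beside the threonyl-tRNA synthetase TARS1, measured 143, 141 and 138 CPM in siNC and 198, 154 and 149 CPM in siTRIM28. It was called higher (log2 fold change 0.25 ± 0.09, adjusted p = 0.0388), but not without any one of the siNC replicates (0.23 to 0.25) and not with the close libraries summed (0.29). The spans of TARS1-DT and TARS1 share 96 bases, so reads may be counted for both. TARS1 itself had a log2 fold change of a like size (0.23 ± 0.05), and the ratio of transcript to host was nearly flat (log2 difference 0.01 ± 0.06, adjusted p = 0.947). CTDSPL2-DT, at 32.4 RPKM beside a protein phosphatase gene, overlaps GOLM2 on the other strand, which had a mean of 1004 counts. It measured 19.7, 19.7 and 20.4 CPM in siNC and 25.1, 19.1 and 18 CPM in siTRIM28 and its groups overlapped. Of the 5 most abundant divergent transcripts, TARS1-DT was thus the only one that passed the test with all libraries.

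With TRIM28 lowered, more divergent transcripts rose than fell. Of the 187, 55 were called higher in siTRIM28 (29.4%) and 14 lower (7.49%), at an adjusted p under 0.05 in edgeR's quasi-likelihood test over 18474 genes. Over all genes tested, 21.3% were called higher and 20.5% lower, 41.8% in either direction. The median log2 fold change of the transcripts was 0.17, against 0.02 for all genes tested. Among all 14681 genes that pass the same count rule, 23.3% were higher and 24.5% lower, and among the 8410 of these with a mean count up to 292.1, a range that holds most of the transcripts, 21.0% and 19.2%. Other classes of noncoding genes under the same count rule gave, side by side and with no test, 27.4% higher and 11.9% lower for 464 genes named as antisense (-AS) and 44.5% higher and 8.03% lower for 137 genes named LINC.

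The excess of rises was also seen where the transcript shares no annotated base with its host. Of the 91 transcripts with spans apart from the host, 34 were higher (37.4%) and 4 lower (4.40%), with a median log2 fold change of 0.23. Of the 96 that overlap the host, 21 were higher (21.9%) and 10 lower (10.4%), with a median of 0.16. The 19 that overlap no listed gene gave 9 higher and 0 lower. In that last set 1 transcript was lower at an unadjusted p under 0.05 in edgeR and in limma-voom and 0 in DESeq2. There DESeq2 called 6 higher and limma-voom 9. The 34 include JUN-DT, PAQR5-DT, CKAP2-DT, RNF139-DT, OTULIN-DT and UBL7-DT, and the 9 include CKAP2-DT and RNF139-DT. These passed the count rule through siTRIM28 alone and so had to be higher.

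**Figure D2:**
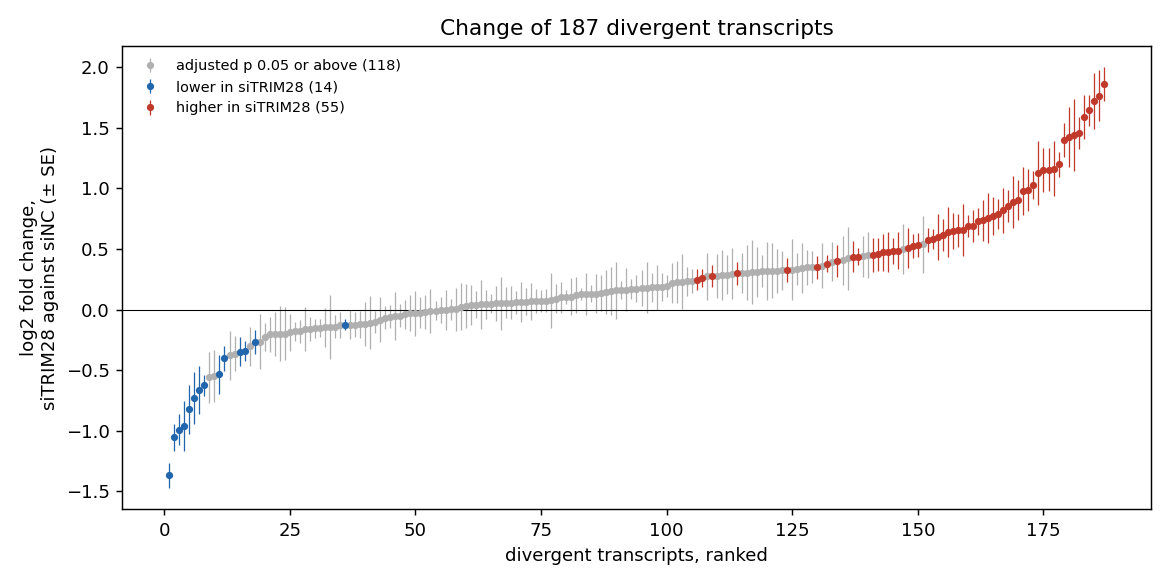
Log2 fold change between siTRIM28 and siNC of each divergent transcript, ranked, with its standard error (edgeR, 3 libraries a group). Red points (55) passed the test as higher and blue points (14) as lower, and the called rises reach 1.86 while the called falls reach -1.37.

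Groups did not overlap for 67 transcripts that were higher and 17 that were lower in siTRIM28, which compares with 26.3% and 25.7% of all genes tested and 52.0% in either direction. A change of at least 2-fold was called for 15 transcripts upward and 2 downward (3.55% and 2.33% of all genes tested). The 15 include JUN-DT, PAQR5-DT, SMAD3-DT, CKAP2-DT, RNF139-DT, OTULIN-DT and YY1-DT. These passed the count rule through siTRIM28 alone and so had to be higher. By mean count, 13 of the 62 transcripts with the lowest counts (25.5 to 53.0) were higher and 4 lower, with a median standard error of 0.20 and a median log2 fold change of 0.20. Those 13 include JUN-DT, PAQR5-DT, SMAD3-DT, CKAP2-DT, RNF139-DT, OTULIN-DT, YY1-DT and UBL7-DT, and the 4 include PINX1-DT. All of these had to differ, because they passed the count rule through 1 group alone. In the middle (56.0 to 121.7), 24 of 62 were higher and 5 lower, with a median standard error of 0.15 and a median change of 0.30. Of the 63 with the highest counts (122.8 to 2968), 18 were higher and 5 lower, with a median standard error of 0.10 and a median change of 0.07. The most rises were thus called in the middle range, not where the precision was best. In siTRIM28 replicate 1 the median transcript lay 0.27 above its siNC mean on the log2 scale, against 0.11 and 0.14 in replicates 2 and 3. Without that replicate 52 were higher and 19 lower (21.8% and 23.1% of all genes tested), and without siNC replicate 2 or siTRIM28 replicate 3 the number lower was 9.

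Some transcripts passed the count rule through 1 group alone, and these had to differ. JUN-DT, PAQR5-DT, SMAD3-DT, CKAP2-DT, RNF139-DT, OTULIN-DT, YY1-DT and UBL7-DT had 30 or more counts in all 3 siTRIM28 libraries and in none of siNC. MIF4GD-DT and PINX1-DT had them in all of siNC and in none of siTRIM28. All but MIF4GD-DT were called (log2 fold change -0.56 ± 0.21, adjusted p = 0.0526 for MIF4GD-DT). Among the 151 transcripts with 30 or more counts in every library, 42 were higher (27.8%) and 10 lower (6.62%).

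The largest rise was that of ERRFI1-DT (GRCh38, chr1:8026413-8187014), whose host ERRFI1 is a feedback inhibitor of the EGF receptor. It measured 3.1, 2.38 and 3.06 CPM in siNC and 10.8, 9.97 and 10.3 CPM in siTRIM28, so that every siTRIM28 library was at least 3 times as high as any of siNC. It rose 3.64-fold (log2 fold change 1.86 ± 0.14, adjusted p = 1.07e-06). ERRFI1, 104 bases away, measured 454, 461 and 443 CPM in siNC and 462, 451 and 467 CPM in siTRIM28, with overlapping groups. The ratio of transcript to host was higher in siTRIM28 (log2 difference 1.84 ± 0.14, adjusted p = 2.14e-05). The transcript's span holds LINC01714 on its own strand, with a mean of 8.67 counts per library.

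JUN-DT (chr1:58784166-59240555) starts 118 bases from JUN, a subunit of the AP-1 transcription factor. It had 22, 18 and 16 counts in siNC and 62, 68 and 48 in siTRIM28, a rise of 1.77 ± 0.21 on the log2 scale. JUN rose as well, but less (0.31 ± 0.04), and the ratio was higher in siTRIM28 (log2 difference 1.43 ± 0.21, adjusted p = 0.000950). FGGY-DT (chr1:59131925-59296491), beside the carbohydrate kinase gene FGGY, lies partly within the span of JUN-DT on the opposite strand. It measured 3.38, 3.25 and 3.37 CPM in siNC and 9.14, 7.69 and 9.63 CPM in siTRIM28, a rise of 1.40 ± 0.14, while FGGY stayed within overlapping groups (log2 fold change 0.09 ± 0.17, adjusted p = 0.705). Reads from the part of the spans shared with JUN-DT may have been counted for both. FGGY-DT also overlaps a gene without a symbol on its own strand. That gene had a mean of 38.5 counts, against 78 for FGGY-DT, so its reads may be included.

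PAQR5-DT (chr15:69263427-69298768), beside the gene of a membrane progestin receptor, had 18, 11 and 15 counts in siNC and 56, 43 and 37 in siTRIM28. It rose by 1.72 ± 0.23 on the log2 scale and PAQR5 by 0.23 ± 0.05, with no overlap of the groups in either. Its span also overlaps GLCE on the other strand. ST3GAL1-DT, beside a sialyltransferase gene, overlaps no listed gene. It measured 3.74, 3.76 and 3.61 CPM in siNC and 12.6, 11.7 and 10.5 CPM in siTRIM28, a 3.12-fold rise (log2 fold change 1.64 ± 0.12, adjusted p = 1.20e-06), while ST3GAL1 measured 20.2, 20.4 and 20.2 CPM in siNC and 20.4, 22.8 and 19.5 CPM in siTRIM28 and was not called (0.04 ± 0.07).

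CKAP2-DT (chr13:52454772-52455403) and RNF139-DT also overlap no listed gene. CKAP2, whose product binds spindle microtubules, is 26 bases from CKAP2-DT. The transcript had 21, 20 and 20 counts in siNC and 84, 38 and 34 in siTRIM28, with siTRIM28 replicate 1 far above the other siTRIM28 libraries, and its rise (log2 fold change 1.44 ± 0.30, adjusted p = 0.00234) exceeded that of CKAP2 (0.37 ± 0.04). RNF139-DT, beside the gene of an E3 ubiquitin ligase of the endoplasmic reticulum, had 12, 20 and 21 counts in siNC and 51, 34 and 48 in siTRIM28 and rose by 1.42 ± 0.25.

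Large rises were also seen in transcripts that overlap their host's span, where reads of the host may be included. SMAD3-DT, beside the transducer of TGF-β signals SMAD3, measured 1.44, 1.73 and 1.96 CPM in siNC and 4.93, 4.9 and 5.66 CPM in siTRIM28, against 183, 181 and 187 CPM in siNC and 185, 196 and 190.4 CPM in siTRIM28 for SMAD3. SAP30-DT, beside the gene of a subunit of the Sin3 histone deacetylase complex, measured 6.98, 7.22 and 5.64 CPM in siNC and 21.3, 15.5 and 17.8 CPM in siTRIM28, against 86, 80.8 and 81.9 CPM in siNC and 91.2, 102 and 94.8 CPM in siTRIM28 for SAP30. ITGB1-DT, annotated from 47402 bases inside the gene of integrin β1, measured 6.41, 7.95 and 6.43 CPM in siNC and 16.8, 15.9 and 15 CPM in siTRIM28. In each of them the groups of the divergent transcript lay apart, with rises of 1.59, 1.46 and 1.20 on the log2 scale, and the host moved by 0.05, 0.21 and -0.16. SAP30's own call was lost without siNC replicate 2 (0.19) or siTRIM28 replicate 2 (0.16) and with the close libraries summed (0.17), and that of PAQR5 with the close libraries summed (0.19).

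Among the transcripts that rose but are not among the 10 largest, OTULIN-DT (27, 15 and 21 counts in siNC and 53, 35 and 44 in siTRIM28) lies beside the gene of a deubiquitinase for linear chains, YY1-DT (22, 20 and 9 counts in siNC and 40, 30 and 34 in siTRIM28) beside that of the transcription factor YY1, and UBL7-DT (26, 25 and 22 counts in siNC and 41, 42 and 37 in siTRIM28) beside that of a ubiquitin-like protein. None of these 3 hosts was called (log2 fold changes 0.14, 0.00 and -0.02). OTULIN-DT overlaps the pseudogene EEF1A1P13 on its own strand, which had a mean of 951.7 counts. The 45 called rises beyond the 10 largest ran from 0.25 to 1.16. EOLA1-DT, EOLA2-DT and ARHGAP11B-DT, which are among them and are named after their values were seen, belong to near-identical gene copies, so their counts are uncertain.

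**Figure D3:**
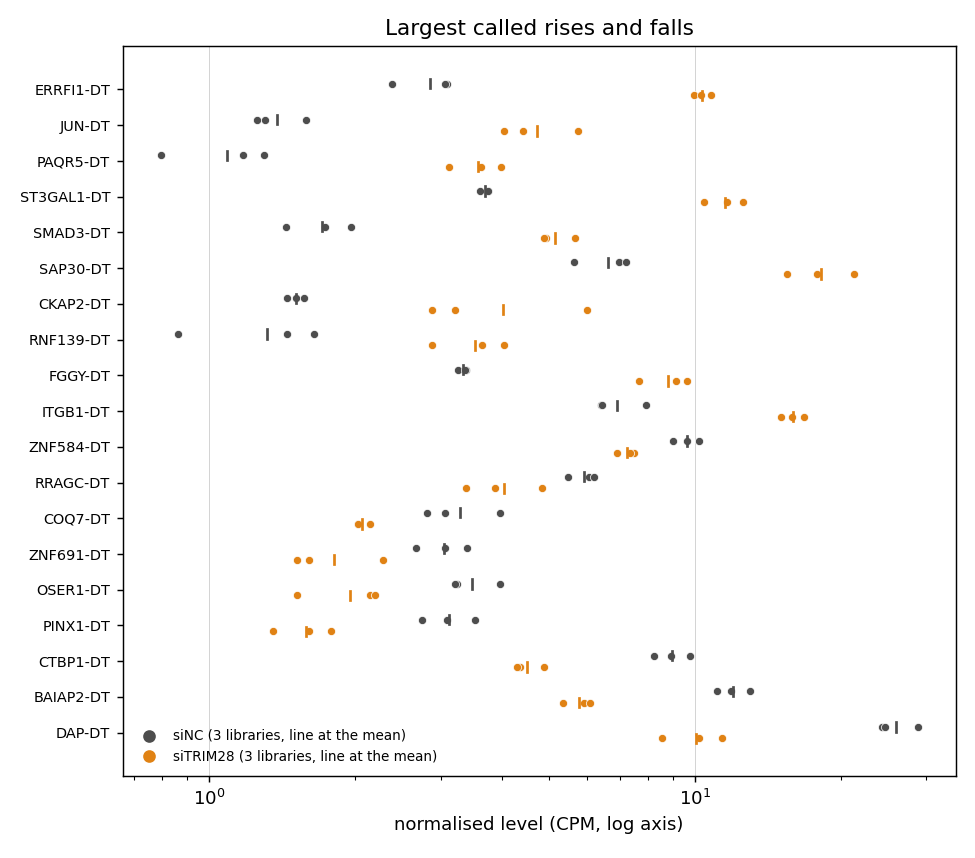
Normalised level (CPM, log axis) of the 10 divergent transcripts with the largest called rise, from the top, and 9 of the 10 with the largest called fall, in each library. Dots are single libraries and lines the means of 3, and in all 19 transcripts the siNC and siTRIM28 dots lie apart. JUN-DT, PAQR5-DT, SMAD3-DT, CKAP2-DT, RNF139-DT and PINX1-DT passed the count rule through 1 group alone and so had to differ.

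Fewer transcripts fell, and most of the called falls, though not most of the largest, were beside hosts that were called lower too. Of the 14 called falls, 9 had a host called lower, 3 a host called higher and 2 a host not called. Their median was -0.64 on the log2 scale. Of the 14, 4 had a span apart from the host.

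DAP-DT (chr5:10757714-10770280) fell most. It measured 24.3, 24.6 and 28.8 CPM in siNC and 8.57, 11.4 and 10.2 CPM in siTRIM28, a 2.58-fold fall (log2 fold change -1.37 ± 0.10, adjusted p = 1.26e-06). Its host DAP, a gene named for a role in cell death, fell as much (-1.28 ± 0.07), and counts of DAP-DT per 100 of DAP were 43.2, 44.5 and 46.1 in siNC and 37.2, 46.9 and 41.7 in siTRIM28, with overlapping groups. The 2 spans share 3512 bases, so reads of DAP may be among those of DAP-DT.

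BAIAP2-DT (chr17:81017969-81034881) fell while its host was not called. BAIAP2 encodes a regulator of the actin cytoskeleton, and its start is 241 bases away with no overlap. The transcript measured 11.9, 11.1 and 13 CPM in siNC and 5.36, 5.91 and 6.08 CPM in siTRIM28, a 2.08-fold fall (log2 fold change -1.06 ± 0.11, adjusted p = 1.61e-05). BAIAP2 measured 7.27, 7.37 and 8.15 CPM in siNC and 8.0, 8.53 and 8.45 CPM in siTRIM28, with overlapping groups. Counts of the transcript per 100 of BAIAP2 were 163, 151 and 159.6 in siNC and 67, 69.3 and 72 in siTRIM28 (log2 difference -1.18 ± 0.13, adjusted p = 0.000215).

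CTBP1-DT, beside the gene of a transcriptional corepressor, measured 9.79, 8.23 and 8.94 CPM in siNC and 4.36, 4.9 and 4.31 CPM in siTRIM28. It fell by 0.99 on the log2 scale and CTBP1 by 0.38, and the ratio was lower in siTRIM28 (log2 difference -0.60 ± 0.13, adjusted p = 0.00774), although the spans share 1453 bases. PINX1-DT, beside a telomerase inhibitor gene, had 43, 38 and 45 counts in siNC and 25, 19 and 16 in siTRIM28 and fell together with PINX1 (-0.97 and -0.50), of which it overlaps 742 bases. COQ7-DT, beside a gene of ubiquinone synthesis, had 39, 55 and 39 counts in siNC and 30, 24 and 24 in siTRIM28, and COQ7 fell more than the transcript (-0.91 against -0.66). ZNF691-DT, beside a zinc-finger gene, had 37, 47 and 39 counts in siNC and 32, 19 and 18 in siTRIM28, a log2 fold change of -0.73, while ZNF691 was not called (-0.20). COQ7-DT overlaps COQ7 and TMC7, with means of 102.7 and 84.7 counts, and ZNF691-DT overlaps ZNF691 and ERMAP, with 80.5 and 174.7, so reads of these genes may be included. The last 2 calls rest on few counts. That of COQ7-DT was lost without siNC replicate 2 (-0.50) and in DESeq2 (-0.67). That of ZNF691-DT was lost without siNC replicate 2 (-0.64), siTRIM28 replicate 2 (-0.66) or siTRIM28 replicate 3 (-0.63), in DESeq2 (-0.75) and with the close libraries summed (-0.73).

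Set beside their hosts, the divergent transcripts and the hosts were called higher in similar numbers, but 61 hosts against 14 transcripts were called lower. The median SE was 0.15 for the transcripts and 0.07 for the hosts, so that a small change of a transcript was harder to call. Of the hosts, 51 were higher, 61 lower and 72 not called, and 3 (CCNO, RASSF10 and APCDD1L) were too low to test. The hosts' median log2 fold change was -0.01. When the transcript was higher, the host was higher in 29 pairs, lower in 8, not called in 17 and untested in 1. When the transcript was not called, the host was lower in 44 pairs and higher in 19.

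Both genes of a pair were called in 49 cases, 38 in the same direction (77.6%) and 11 in opposite directions. In the other head-to-head pairs of the table, which are genes on opposite strands with starts within 1000 bases, 70.5% of the 495 with both genes called moved the same way. For spans apart, the numbers were 18 of 25 among the divergent transcripts and 60.2% of 244 among the other pairs, and for overlapping spans 20 of 24. Across all 184 pairs the log2 fold changes of transcript and host had a Pearson correlation of 0.40 and a Spearman correlation of 0.41. Pearson's r was 0.22 over the 89 pairs with spans apart, 0.58 over the 95 with overlapping spans and 0.31 over the 2437 other head-to-head pairs. These correlations are across genes measured in the same 6 libraries, which are no independent replicates. The part of reads counted for both genes in the value of overlapping pairs was not tested.

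**Figure D4:**
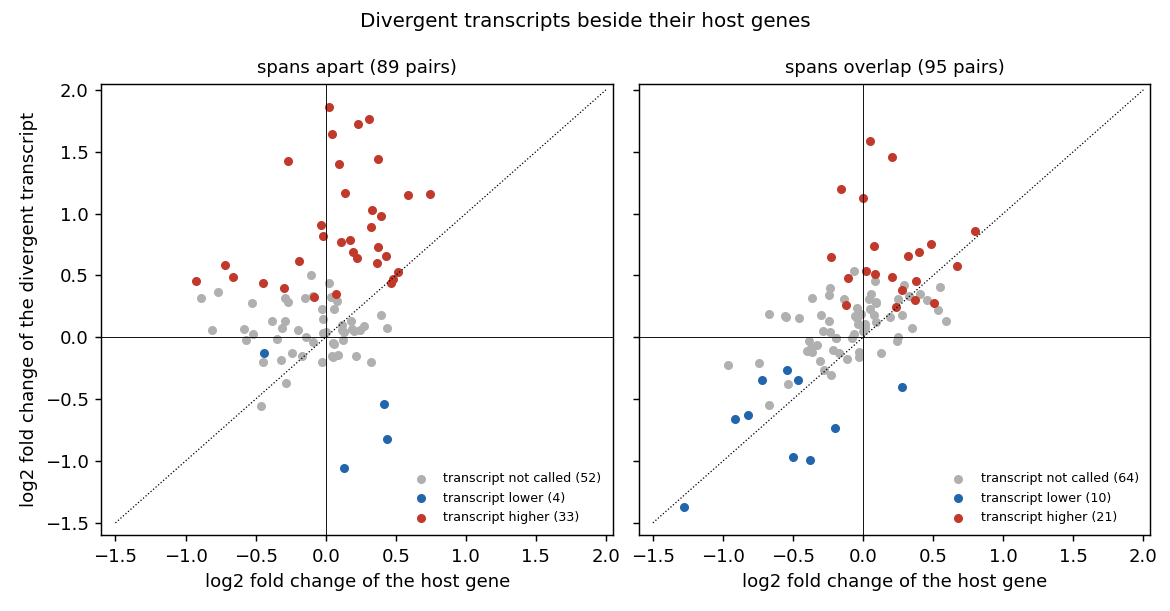
Log2 fold change of each divergent transcript (vertical) against that of its host (horizontal), for 89 pairs whose spans lie apart (left) and 95 whose spans overlap (right). The dotted line marks equal change, and on the left most red points, the transcripts called higher, lie above it.

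The ratio of transcript to host within each library was tested directly, over all 2621 pairs with limma, so that the scaling of libraries cancels. It was higher in siTRIM28 for 49 of 184 pairs (26.6%) and lower for 7 (3.80%), with 128 not called and a median log2 difference of 0.24. In the 2437 other head-to-head pairs, read as the less over the more expressed gene, 15.9% were higher and 10.6% lower, 26.5% in either direction, with a median of 0.07. With spans apart, 30 of 89 were higher (33.7%) and 5 lower (5.62%), against 21.0% and 13.4% of 1212 other pairs. With overlapping spans, 19 of 95 were higher and 2 lower. Without siTRIM28 replicate 1 the ratio was higher for 54 pairs and lower for 13.

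The 6 largest differences between transcript and host that passed the test were all in favour of the transcript. They were those of ERRFI1-DT, RNF139-DT, ST3GAL1-DT, SMAD3-DT, PAQR5-DT and JUN-DT. Of these, RNF139-DT, SMAD3-DT, PAQR5-DT and JUN-DT passed the count rule through siTRIM28 alone, so that their counts had to be higher. For RNF139-DT, counts per 100 of RNF139 were 7.79, 13.9 and 15.4 in siNC and 38.1, 32.4 and 49.5 in siTRIM28 (log2 difference 1.71 ± 0.29, adjusted p = 0.00207). For ST3GAL1-DT they were 18.6, 18.4 and 17.8 and 61.8, 51.1 and 53.7 per 100 of ST3GAL1 (log2 difference 1.60 ± 0.14, adjusted p = 4.15e-05). No siTRIM28 library overlapped siNC in either, which for RNF139-DT follows in part from the count rule. A higher ratio did not always mean a higher transcript. DHCR7-DT, beside a gene of cholesterol synthesis and named here after its values were seen, measured 11.6, 11.1 and 9.17 CPM in siNC and 9.36, 8.19 and 9.8 CPM in siTRIM28 with a log2 fold change of -0.22 that was not called, while DHCR7 fell by 0.97, which gave a higher ratio (log2 difference 0.75 ± 0.13, adjusted p = 0.00275). INSIG1-DT, also named after its values were seen and beside a sensor of sterols, rose with INSIG1 (0.30 and 0.37) and its ratio was not called. Both overlap their hosts.

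The pairs in which the transcript and the host passed the test in opposite directions were 11. In 8 the transcript was higher and the host lower, and in 3 the transcript was lower and the host higher. Without siNC replicate 2 there were 7 such pairs and without siNC replicate 3 there were 6. Of the 8, RNF139-DT passed the count rule through siTRIM28 alone, so that its counts had to be higher.

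CAMSAP1-DT (chr9:135907802-135916147) and CAMSAP1, which caps the minus ends of microtubules, start 256 bases apart. The transcript measured 9.58, 9.46 and 9.17 CPM in siNC and 14.2, 14.4 and 13.7 CPM in siTRIM28 and rose 1.50-fold (log2 fold change 0.58 ± 0.08, adjusted p = 0.000133). The host measured 93.4, 98.4 and 94.5 CPM in siNC and 56.8, 62.7 and 54.9 CPM in siTRIM28 and fell (log2 fold change -0.72 ± 0.06, adjusted p = 2.37e-06). Relative to the host the transcript more than doubled, with 10.3, 9.61 and 9.71 counts per 100 in siNC and 25, 23 and 24.9 in siTRIM28.

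OSER1-DT (chr20:44210907-44226020) and OSER1, a gene named for its response to oxidative stress, moved the other way, with starts 136 bases apart. The transcript had 45, 55 and 41 counts in siNC and 30, 26 and 18 in siTRIM28 (log2 fold change -0.82 ± 0.20, adjusted p = 0.00642). The host measured 41.2, 43.3 and 38.8 CPM in siNC and 64.8, 49.9 and 52.4 CPM in siTRIM28 (log2 fold change 0.44 ± 0.09, adjusted p = 0.00243). RRAGC-DT, beside the gene of a Rag GTPase of the mTORC1 pathway, had 76, 84 and 79 counts in siNC and 68, 46 and 40 in siTRIM28, while RRAGC measured 19.1, 19.1 and 18.2 CPM in siNC and 24.8, 26.6 and 23.8 CPM in siTRIM28. In OSER1-DT and RRAGC-DT the groups lay apart for transcript and host alike. The call of RRAGC-DT was lost without siNC replicate 2 (-0.52), siNC replicate 3 (-0.50), siTRIM28 replicate 2 (-0.51) or siTRIM28 replicate 3 (-0.43) and with the close libraries summed (-0.54), and its span holds 7 genes on the other strand, among them MYCBP.

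RAB30-DT, beside the gene of a Golgi GTPase, was more abundant than its host. It measured 31.9, 30 and 28.4 CPM in siNC and 53.2, 34.5 and 35.7 CPM in siTRIM28, with siTRIM28 replicate 1 the highest, against 4.46, 4.91 and 4.55 CPM in siNC and 3.0, 2.28 and 1.94 CPM in siTRIM28 for RAB30. It overlaps LINC02951 on the other strand, which had a mean of 386 counts, and its call was lost without siNC replicate 2 (0.45) or siNC replicate 3 (0.42) and with the close libraries summed (0.53). ZNF496-DT, beside a zinc-finger gene, measured 7.63, 6.65 and 7.68 CPM in siNC and 9.71, 11 and 10.1 CPM in siTRIM28 and ZNF496 32, 35.6 and 37.3 CPM in siNC and 21.7, 21.5 and 23.2 CPM in siTRIM28. Both groups lay apart in each gene, and NLRP3 lies within the span of ZNF496-DT on its own strand.

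TBC1D22A-DT (chr22:46761879-46762613) starts 4 bases from TBC1D22A, whose product has a domain of Rab GTPase activators, and overlaps no listed gene. It measured 6.41, 5.63 and 6.04 CPM in siNC and 8.0, 7.35 and 9.12 CPM in siTRIM28, a rise of 0.44 ± 0.13, against 14.6, 15.1 and 13.6 CPM in siNC and 10.9, 10.3 and 10.6 CPM in siTRIM28 and -0.44 ± 0.08 for the host. Its call was lost without siNC replicate 2 (0.39) or siTRIM28 replicate 3 (0.34), in DESeq2 (0.43) and with the close libraries summed (0.40). Transcript and host thus moved by similar amounts in opposite directions. RNF139-DT, the other such pair that overlaps no gene, has a host whose call was marginal (log2 fold change -0.27 ± 0.10, adjusted p = 0.0454) and was lost without any one of 5 libraries (-0.29 to -0.22), in DESeq2 (-0.28) and under 5 other settings (-0.28 to -0.23).

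The remaining 4 pairs have overlapping spans. GSK3B-DT, beside the gene of a kinase of Wnt and insulin signals, measured 3.67, 3.54 and 3.37 CPM in siNC and 5.57, 6.0 and 5.07 CPM in siTRIM28, against 66.5, 62.1 and 60.6 CPM in siNC and 55.4, 53.5 and 52.3 CPM in siTRIM28 for GSK3B. For ITGB1-DT there were 0.285, 0.349 and 0.28 counts per 100 of ITGB1 in siNC and 0.809, 0.781 and 0.745 in siTRIM28. CTTN-DT, beside the actin-binding cortactin gene CTTN, measured 13.8, 14.5 and 13.7 CPM in siNC and 16.9, 17.5 and 15.8 CPM in siTRIM28, and the changes of both were small (0.26 and -0.12). ZNF584-DT lies wholly within ZNF584 and fell by 0.40 while ZNF584 rose by 0.28. The groups lay apart in all 4 transcripts. The call of CTTN-DT was lost without siNC replicate 1 (0.24), siNC replicate 3 (0.24) or siTRIM28 replicate 2 (0.22), with no filter on low counts (0.25), in DESeq2 (0.25) and with the close libraries summed (0.24). That of CTTN was lost without siNC replicate 3 (-0.11), with upper-quartile scaling (-0.09) and in DESeq2 (-0.13), and that of GSK3B with the close libraries summed (-0.24). That of ZNF584-DT was lost in DESeq2 (-0.41), and that of ZNF584 in DESeq2 (0.27), with no filter on low counts (0.27), with the close libraries summed (0.24) and without any one of 5 libraries (0.23 to 0.30).

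**Figure D5:**
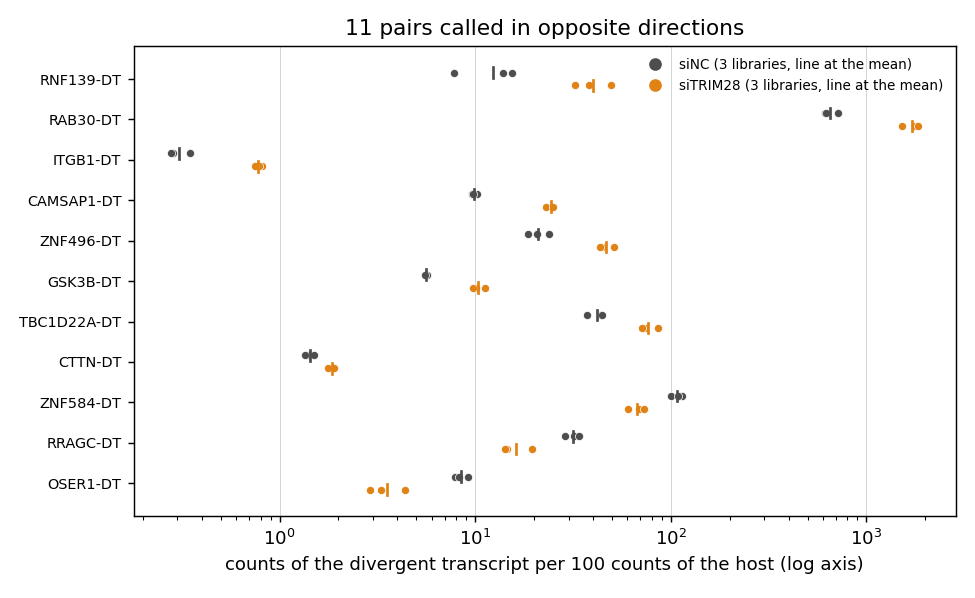
Counts of the divergent transcript per 100 counts of its host (log axis) in each library, for the 11 pairs called in opposite directions. Dots are single libraries and lines the means of 3. In 8 pairs the siTRIM28 dots lie above those of siNC and in the lower 3 below them. RNF139-DT passed the count rule through siTRIM28 alone, so that its counts had to be higher.

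Genes that end, degrade or pause transcripts near promoters were counted for comparison, from a list that covers the Integrator complex, the nuclear exosome and its adaptors, cap-binding proteins, cleavage and polyadenylation factors, U1 proteins, the restrictor complex and factors of pausing and 7SK. Of its 79 genes, all tested, 14 were higher, 35 lower and 30 not called, with a median log2 fold change of -0.11. Over all genes tested, 21.3% were higher and 20.5% lower. Among the 14681 genes that pass the count rule of the transcripts, 23.3% were higher and 24.5% lower, and among the hosts 27.3% and 32.6%. A background of genes at the same level as the list was not counted. Of 15 Integrator genes 2 were higher and 8 lower, of 18 cleavage and polyadenylation genes 6 were higher and 10 lower, and of 5 cap-binding genes 1 was higher and 4 were lower. Of 13 exosome genes 0 were higher and 3 lower, and of 9 genes of exosome adaptors 3 were higher and 3 lower. Pausing and 7SK factors gave 2 higher and 5 lower of 14, U1 proteins 0 higher and 1 lower of 3, and the restrictor 0 higher and 1 lower of 2. Whether these levels bear on those of the divergent transcripts was not tested.

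NELFE, a subunit of the pausing factor NELF, fell most and measured 89.1, 84.1 and 91.9 CPM in siNC and 46.8, 39.1 and 35.3 CPM in siTRIM28 (-1.13 ± 0.09, adjusted p = 1.48e-06). EXOSC2, a subunit of the exosome core, measured 98.6, 95.4 and 103 CPM in siNC and 45.7, 47 and 48.6 CPM in siTRIM28 (-1.07 ± 0.05, adjusted p = 5.08e-08). Both were lower by more than the spread between libraries. INTS5, an Integrator subunit, was the next but rests on low levels (1.66, 2.09 and 1.49 CPM in siNC and 0.714, 1.27 and 0.591 CPM in siTRIM28). The largest rises were those of CCNT2, a cyclin of the elongation kinase P-TEFb (0.53 ± 0.06, adjusted p = 4.84e-05), PCF11, which ends transcription (0.43 ± 0.05, adjusted p = 5.81e-05), and CSTF3, a cleavage factor (0.35 ± 0.05, adjusted p = 8.59e-05).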

How the data were processed

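RNA-seq was made from T24 cells, 3 siNC and 3 siTRIM28 libraries. The authors deposited raw read counts per gene for each library with the length of each gene, and the submitters' processing notes name fastp 0.23.1, STAR 2.7.6a, featureCounts and GRCh38. The annotation release and the strand setting of the counting are not given in the sources used here, and the counts of overlapping genes show that reads were counted for every gene they overlap on either strand. The other deposited file holds the authors' own list of changed genes with RPKM, fold changes and p-values, and was not used. Counts were analysed with R 4.3.3. The 18474 of 78932 genes that reached 10 counts in 3 or more libraries were tested with edgeR 4.0.16 (TMM scaling, quasi-likelihood, group as the only term), with Benjamini-Hochberg adjustment over all of them and a threshold of 0.05. The SE of a log2 fold change is its size divided by the square root of F. The ratio of a divergent transcript to its host was tested with limma 3.58.1 on the log2 ratio per library, with voom weights of both genes, over 2621 pairs with starts on opposite strands, namely 184 divergent transcripts with their hosts and 2437 other gene pairs with starts within 1000 bases. Both tests were checked on simulated data. With 3 libraries a group an exact permutation test of one value cannot go below p = 0.1. P-values measure the spread between these libraries, which are labelled as biological replicates without naming separate cultures. Depth was 11712623 to 14018052 counts, and the common biological coefficient of variation was 0.0733. CPM were computed from the counts with TMM-scaled totals, and RPKM with the unscaled total counts of each library.

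The members and the lists were chosen with earlier results of these data known. Named were TRIM28, the 10 largest called rises and falls, pairs called in opposite directions, the 6 largest called ratios, the 5 highest RPKM, transcripts that passed the count rule in only 1 group, the 3 on each side of its limit, and the 3 largest called rises and falls of the list of factors. Other genes were named after their values were seen. These are the genes that overlap a transcript, RN7SK, MALAT1, TALAM1, MGAT2, the 3 hosts too low to test, and those said to be so in the text. Alternatives were other scalings, filters and thresholds, DESeq2 1.42.0, limma-voom, a replicate block, each library left out and other member rules. Plots were drawn with Python 3.11.15 and matplotlib 3.10.9. Promoters came from RefSeq by symbol, and 143 of 187 matched. Some results that the rule would name are not reported here, and 1 transcript is left out of the plot of levels by library.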

Additional observations from a re-analysis of the deposited data

How the results depend on the processing

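The numbers of transcripts called higher and lower, 55 and 14, stayed within 1.5 times under the other scalings, filters on low counts and limma-voom, and under the stricter member rules of a mean of 30 counts or 30 counts in all 6 libraries. DESeq2 called 9 lower and left 7 pairs in opposite directions. With the close libraries of each group summed, 37 were higher and 9 lower (13.3% and 15.7% of all genes tested), 20 pairs moved together, 4 moved in opposite directions and 34 ratios differed, 29 of them higher. At an adjusted p under 0.01, 45 transcripts were called, 8 of them lower, with 21 pairs together, 5 in opposite directions and 33 ratios, 28 of them higher. The 19 transcripts that overlap no gene gave 9 calls, 9 higher and 0 lower, a median log2 fold change of 0.35, 5 pairs together, 2 in opposite directions and 8 ratios, 7 higher and 1 lower. The 91 with spans apart from the host, a set added after seeing the data, gave 38 calls, 34 higher and 4 lower, 18 pairs together, 7 in opposite directions and 35 ratios, 30 of them higher. These last 2 sets hold fewer transcripts by construction, and for the other settings the cause was not tested. Leaving out 1 library at a time gave 54 to 71 transcripts called, 44 to 52 higher and 9 to 19 lower, 26 to 39 pairs together, 6 to 10 in opposite directions, 39 to 67 ratios and 5 to 13 ratios lower. In the same runs the log2 fold changes of ACTN1-DT and BTF3-DT, which passed the test in neither direction with all libraries, ranged from -0.19 to 0.16 and from -0.15 to 0.12 and were called lower without siTRIM28 replicate 1. Over the named transcripts and hosts, 941 of the fold changes under another setting kept their direction and side of the threshold, 31 that were called under neither setting changed sign, 68 kept the direction but lost the call, 7 gained one and 2 changed sign and were called. The deviations of libraries that share a replicate number had correlations of 0.0523, -0.0118 and 0.0374, against -0.0655 to 0.0387 for libraries with different numbers. With 3 libraries a group this does not settle whether the number pairs them. With the replicate number as a block 74 transcripts were called, 59 higher and 15 lower, and 60 ratios differed, and of the named genes SAT1-DT was called lower (-0.16) while RNF139 (-0.27) and ZNF584 (0.28) were no longer called. Shares of all genes called are given only for the main test, the summed libraries and the run without siTRIM28 replicate 1. Under the other fits and thresholds the numbers of calls cannot be set beside a general rate. At these depths the SE of a transcript in the lowest group by count has a median of 0.20, so that small changes of such transcripts were not detectable.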
